A study of Mus musculus with 12 samples.

Results

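The linker histone H1 genes were followed through 12 libraries of mouse embryonic stem cells in which the termination factor eRF1 can be degraded on demand. The set is the family as named by its symbols: the replication-dependent genes H1f1, H1f2, H1f3, H1f4 and H1f5, and the polyadenylated genes H1f0 and H1f10. All 7 were among the 22034 symbols of the footprint table and the 49997 of the RNA table. All cells were of the line ES-E14TG2a and carried eRF1 fused to a dTAG degron, which lets the compound dTAG-13 direct the protein to degradation. All groups grew in medium with LIF and the inhibitors CHIR99021 and PD0325901, which hold stem cells in the naive state. Footprint groups were Gcn2 knockout cells given 500 nM dTAG-13 for 1 h, untreated Gcn2 knockout cells, wild-type cells given the same dose for 1 h and untreated wild-type cells. Poly(A) RNA was sequenced from treated and untreated wild-type cells only. Each group had 2 biological replicates, A and B. Neither vehicle-treated cells nor treated cells lacking the degron appear in the labels, so effects of the compound and of eRF1 loss cannot be told apart. The labels do not say how many clones stand behind each genotype.

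Linker histones bind the DNA that enters and leaves the nucleosome and help to compact chromatin. The replication-dependent members are made mainly in S phase, from intronless mRNAs that end in a stem-loop in place of a poly(A) tail. H1f0 is best known from differentiated and slowly dividing cells, and H1f10 is a divergent member whose mRNA, like that of H1f0, is polyadenylated. eRF1 reads stop codons and releases the finished protein, and GCN2, the product of Eif2ak4, is an eIF2 kinase activated by amino acid shortage and stalled ribosomes.

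In GRCm38.p6 the replication-dependent genes lie on chromosome 13. H1f5 spans 21779832 to 21780625, and the other 4 form a closer group: H1f3 at 23555032 to 23555807, H1f4 at 23621777 to 23622558, H1f2 at 23738807 to 23739531 and H1f1 at 23763668 to 23764412. H1f0 is on chromosome 15 from 79028212 to 79030504 and H1f10 on chromosome 6 from 87980421 to 87981482. The 130 bases before each RefSeq start are shown for the 5 replication-dependent genes, which share promoter elements, and for H1f0 as the contrast. Whether these elements bear on the footprints was not tested. Capitals mark exact matches, on either strand, to the H1 box (AAACACA), the CCAAT box (CCAAT) and a TATA box (TATAAA).
H1f1: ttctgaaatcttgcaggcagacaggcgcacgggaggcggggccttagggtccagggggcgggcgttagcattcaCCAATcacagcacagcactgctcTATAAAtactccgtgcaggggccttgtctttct
H1f2: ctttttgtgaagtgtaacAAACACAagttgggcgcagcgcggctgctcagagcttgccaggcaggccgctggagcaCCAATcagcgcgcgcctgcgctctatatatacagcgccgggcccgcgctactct
H1f3: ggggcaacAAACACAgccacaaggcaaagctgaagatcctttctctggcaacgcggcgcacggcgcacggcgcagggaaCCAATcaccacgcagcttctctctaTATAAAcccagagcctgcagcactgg
H1f4: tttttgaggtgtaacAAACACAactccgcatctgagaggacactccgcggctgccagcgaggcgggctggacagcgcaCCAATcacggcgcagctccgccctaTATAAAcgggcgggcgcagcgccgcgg
H1f5: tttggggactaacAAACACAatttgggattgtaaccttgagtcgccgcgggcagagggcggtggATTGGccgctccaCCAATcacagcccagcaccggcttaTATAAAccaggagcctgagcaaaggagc
H1f0: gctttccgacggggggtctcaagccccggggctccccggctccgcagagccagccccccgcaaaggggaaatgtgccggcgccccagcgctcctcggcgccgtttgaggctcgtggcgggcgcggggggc
Read 5′ to 3′ on each gene's strand, they come from chr13:23763538-23763667 (plus strand), chr13:23738677-23738806 (plus), chr13:23554902-23555031 (plus), chr13:23622559-23622688 (minus), chr13:21780626-21780755 (minus) and chr15:79028082-79028211 (plus), in the order shown.

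An H1 box stood in 4 of the 5 replication-dependent promoters, between 112 and 122 bases before the start, and was missing as an exact match only in H1f1. Each of the 5 had a CCAAT box 51 to 56 bases before the start, inside the 8-letter string ACCAATCA. This string was picked as the longest one common to the 5 windows. Its presence in all 5 was thus fixed by the search, and its shares elsewhere test nothing. Exact TATAAA was found in 4 of 5, H1f2 being the exception. Over the 250 bases before the start, the H1 box was present in 6.25% of 32851 RefSeq promoters, CCAAT in 33.8%, TATAAA in 12.4% and ACCAATCA in 1.96%. Among 53 promoters of core histone genes the H1 box was found in 4, CCAAT in 43, TATAAA in 24 and ACCAATCA in 17. The windows of H1f0 and H1f10 held none of these strings, and the 130 bases before their starts were 76.9% and 83.8% G and C, against 55.4% to 63.8% in the other 5. H1f5 had further CCAAT matches 168 and 66 bases before its start, and H1f3 further TATAAA matches at 153 and 145 bases. These are matches of letters, not sites of binding.

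**Figure D1:**
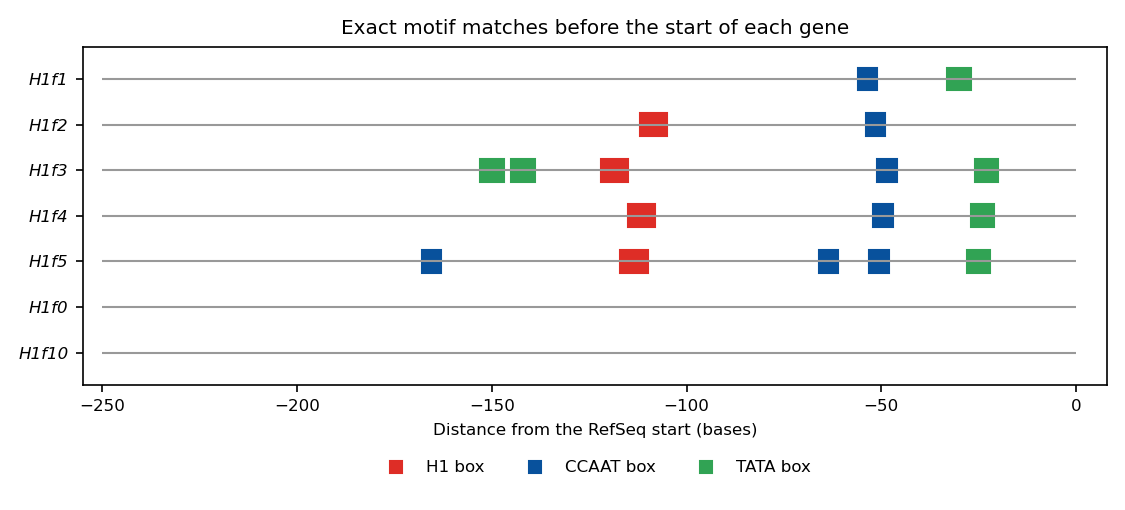
Exact matches to the H1 box, CCAAT box and TATA box in the 250 bases before the RefSeq start of each linker histone gene, with distance from the start in bases on the x axis and 1 gene per line. The 5 replication-dependent genes share the CCAAT box at about the same distance, and the lines of H1f0 and H1f10 are empty.

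Footprint libraries held 7874804 to 19691716 counts, the smallest being treated wild-type A, and RNA libraries 17462458 to 24256097. Eif2ak4, the knocked-out gene, had 2.33 to 5.36 CPM (counts relative to the TMM-scaled library) in the 4 knockout footprint libraries and 27.7 to 34 CPM in the 4 wild-type ones. The replicates of each group differed by more than counting error, with a chi-squared statistic per degree of freedom of 2.76 to 23.7. All 8 stem cell markers were present in each group (summed footprints 8800 to 9620 CPM), while 6 fibroblast markers summed to at most 9.29 CPM and 6 primitive endoderm markers to at most 5.71 CPM. The 6 markers of primed and early differentiating cells summed to 61 and 69.2 CPM in treated against 49.5 and 56.1 CPM in untreated knockout cells, and to 76.8 and 80.2 CPM in treated against 50.5 and 59 CPM in untreated wild-type cells, with 0 to 2 of the 6 at 0 in a group. They thus moved with treatment in the footprints, and their part in the results below was not tested. In wild-type RNA they summed to 71.2 and 71.5 CPM in treated against 75 and 78.9 CPM in untreated cells. A change in the number of cells making an mRNA and a change per cell cannot be told apart in these bulk libraries.

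The first question was how each linker histone changed in its footprints after dTAG-13. The 7 genes follow from their symbols, but the family was chosen by footprint changes already known in these contrasts. The values are therefore a description, with no test. H1f5 stood out in both genotypes and H1f2 in the knockout. H1f5 footprints measured 338 and 374 CPM in treated against 99.6 and 135 CPM in untreated knockout cells. In wild-type cells they were 326 and 247 CPM with treatment and 125 and 127 CPM without. Each of the 4 treated libraries lay above all 4 untreated ones. The fitted log2 change was 1.60 (SE 0.162) in the knockout, a 3.03-fold higher level, and 1.18 (SE 0.161) in wild type, 2.27-fold higher.

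H1f2 was lower with treatment in the knockout. It had 1060 and 1120 CPM in treated against 1730 and 1810 CPM in untreated knockout cells, and the groups were well apart. Wild-type H1f2 measured 1670 and 1120 CPM with treatment and 1490 and 1270 CPM without, the treated pair enclosing the untreated one. The log2 change was −0.70 (SE 0.167) in the knockout, a 1.62-fold lower level, and 0.01 (SE 0.166) in wild type.

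H1f3 was higher with treatment in both genotypes, by less than H1f5. Its footprints came to 1780 and 1820 CPM in treated against 1300 and 1400 CPM in untreated knockout cells, and to 1690 and 1340 CPM in treated against 1230 and 1220 CPM in untreated wild-type cells. Neither genotype's groups overlapped, although wild-type library B lay near the untreated pair. The log2 changes were 0.41 (SE 0.132) in the knockout and 0.31 (SE 0.132) in wild type, the last being 0.13 without treated wild-type library A.

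The most abundant member, H1f1, had 1870 and 2010 CPM in treated against 1890 and 2610 CPM in untreated knockout cells. In wild-type cells it had 2960 and 2060 CPM with treatment and 2420 and 2480 CPM without. Its groups overlapped in both genotypes. H1f4 measured 650 to 671 CPM in treated against 539 to 656 CPM in untreated knockout cells, and 455 to 506 CPM in treated against 434 to 539 CPM in untreated wild-type cells, again with overlap.

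The polyadenylated genes were lower than every replication-dependent gene, nearest to H1f5 in untreated cells, and differed from each other. H1f0 had 29.5 to 29.6 CPM in treated against 28.4 to 31.9 CPM in untreated knockout cells, and 18 to 23.7 CPM in treated against 21.1 to 23.1 CPM in untreated wild-type cells. H1f10 reached 69.4 and 70.8 CPM in treated knockout cells, above the 52.8 and 63 CPM of untreated ones. With treatment, wild-type H1f10 measured 45.7 and 41.4 CPM, within the 39.8 to 49.9 CPM of untreated cells. Its log2 change was 0.28 (SE 0.141) in the knockout and −0.05 (SE 0.145) in wild type.

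**Figure D2:**
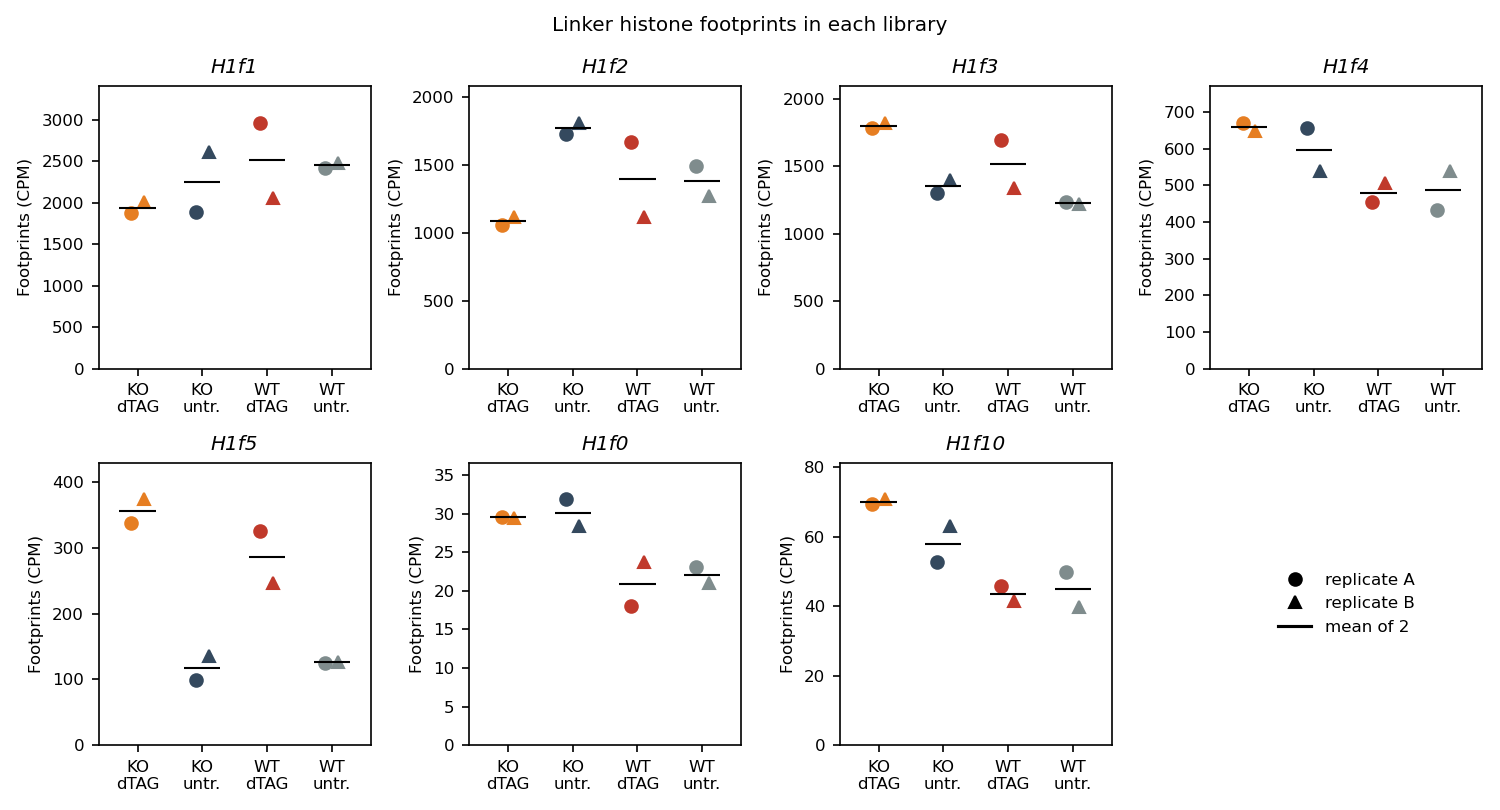
Footprints in CPM for each linker histone gene, 1 panel per gene with its own axis from 0, in treated (dTAG) and untreated (untr.) Gcn2 knockout (KO) and wild-type (WT) libraries. Circles are replicate A, triangles replicate B and lines the mean of 2. The treated libraries of H1f5 lie above all untreated ones, and those of H1f2 lie below the untreated ones in the knockout.

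In edgeR's fit over all genes, at a Benjamini-Hochberg adjusted p under 0.05, 2 of the 7 members were called in the knockout, H1f5 upward and H1f2 downward, where 8.88% of 12267 genes were called, 3.16% upward and 5.71% downward. In wild type H1f5 was the 1 member called, upward, beside 4.88% of genes in either direction and 2.94% upward. The H1f2 call was missing from each of the 4 fits that left out 1 knockout library (log2 change −0.77 to −0.67), and the wild-type H1f5 call from a fit of the 4 wild-type libraries alone (log2 change 1.19). Groups that did not overlap were counted for 3 members higher and 1 lower in the knockout, where 32.5% and 27% of genes did so, and for 2 higher and 0 lower in wild type, where 22.3% and 22.8% did. The median change over the 7 members was 0.14 in the knockout and 0.01 in wild type, beside 0.04 and −0.01 over all genes. Nothing is read from these counts, since the choice of the family used the same contrasts.

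Core histones, the proteins around which nucleosomal DNA is wound, are likewise made in S phase. Their large footprint changes were also known when the lists were drawn up. Of 53 replication-dependent core histone genes tested, 35 were called higher and 1 lower in the knockout (median log2 change 1.28). In wild type 22 were called higher and 0 lower (median 0.74). Over all genes, 3.16% were called higher in the knockout and 2.94% in wild type. The fit of the 4 wild-type libraries alone called only 13 genes of any kind higher, so not all 22 held there. For wild type DESeq2 called 29 higher and 0 lower, and 1 gene was lower at an unadjusted p under 0.05. H1f5 exceeded 42 of these 53 in the knockout and 42 of 53 in wild type. H1f3 exceeded 13 in the knockout and 14 in wild type, and H1f4 exceeded 7 in the knockout and 8 in wild type. H1f2 lay below every one of the 53 in the knockout, and above 9 of them in wild type. In the knockout the 5 replication-dependent linker histones were thus spread from below every core histone gene to above most of them.

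**Figure D3:**
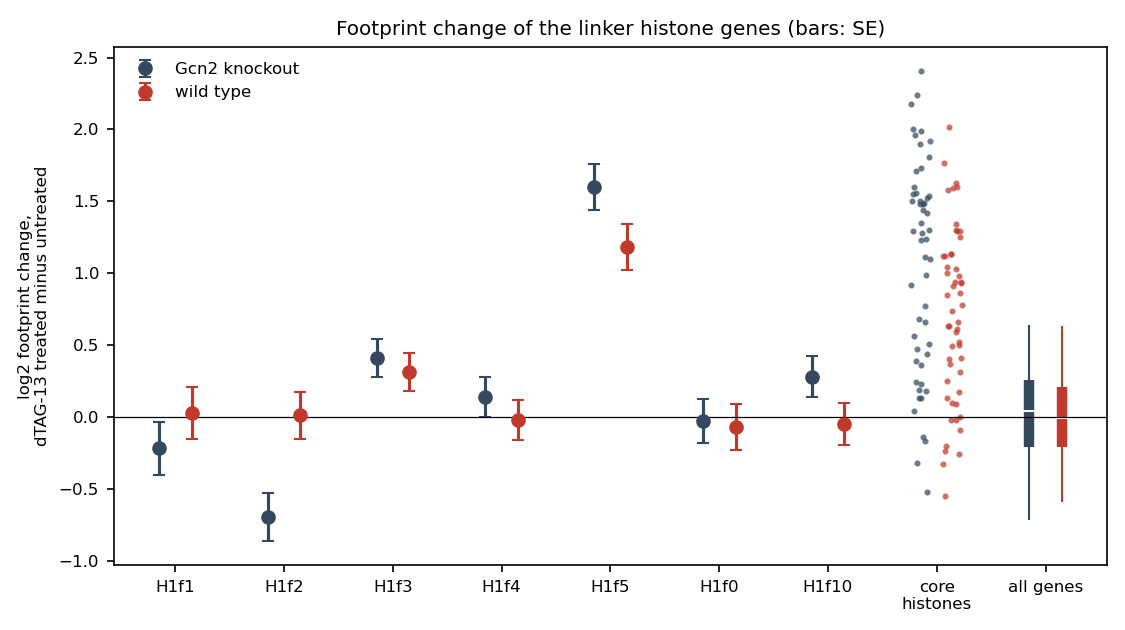
Log2 footprint change, dTAG-13 treated minus untreated, of each linker histone gene in Gcn2 knockout and wild-type cells, with bars of 1 SE from the fit over all genes. Dots to the right are the 53 core histone genes, and the last column gives all 12267 genes from the 25% to the 75% quantile (thick), the 5% to 95% range (thin) and the median (white). H1f5 sits at 1.60 and 1.18 amid the core histones, while H1f2 in the knockout sits at −0.70, below all of them.

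The genotypes were set against each other by the interaction term, in which the wild-type change is subtracted from that of the knockout. It is built from the contrasts by which the family was chosen, so it too is a description. Its value was −0.71 for H1f2 (SE 0.235), 0.42 for H1f5 (SE 0.225), 0.32 for H1f10 (SE 0.203) and −0.25 for H1f1 (SE 0.256). H1f3, H1f4 and H1f0 had values of 0.11, 0.16 and 0.04. With edgeR 0 of 7 members were called, where 0.0489% of genes were. An unadjusted p under 0.05 was reached by 1 member, H1f2, beside 1229 of 12267 genes. DESeq2 also called 0, while the edgeR fit without a filter on low counts called 1, H1f2, at −0.74. When single libraries were left out, the H1f2 difference ranged from −1.01 to −0.40, being −0.40 without treated wild-type library A. H1f5 ranged from 0.19 (without treated wild-type B) to 0.65 (without untreated knockout B). H1f10 ranged from 0.15 (without untreated wild-type A) to 0.48 (without untreated wild-type B).

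The make-up of the linker histone pool was compared as each member's share of the 7 genes' summed counts. This sum was 54026 to 115683 counts per library, or 0.532% to 0.686% of all footprints. H1f5 gave 5.81% (Wilson 95% interval 5.63% to 5.99%) and 6.16% (6% to 6.32%) of it in treated against 1.73% (1.65% to 1.81%) and 2.05% (1.97% to 2.13%) in untreated knockout cells. In wild type H1f5 gave 4.55% (4.38% to 4.73%) and 4.62% (4.47% to 4.78%) with treatment, and 2.15% (2.07% to 2.24%) and 2.23% (2.15% to 2.33%) without.

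The share of H1f2 in treated knockout cells was 18.3% (18% to 18.6%) and 18.4% (18.2% to 18.7%), against 30% (29.8% to 30.3%) and 27.5% (27.3% to 27.8%) in untreated knockout cells. In wild-type cells H1f2 gave 23.3% (22.9% to 23.6%) and 21% (20.7% to 21.3%) with treatment and 25.8% (25.5% to 26.1%) and 22.3% (22.1% to 22.6%) without. The intervals cover counting error only. Those of the replicates overlapped for H1f2 in treated knockout cells and for H1f5 in both wild-type groups. In the other groups listed for these genes they were apart. Treated minus untreated, the mean share in the knockout differed by −10.42 percentage points for H1f2, 8.34 for H1f3 and 4.09 for H1f5. H1f3 had a mean share of 30.3% ± 0.46 in treated and 21.9% ± 0.869 in untreated cells (SD, n = 2 each), and 24.4% ± 1.04 against 21.4% ± 0.0423 in wild type. The 7 genes summed to 5819 and 6069 CPM in treated against 5766 and 6587 CPM in untreated knockout cells, and 7170 and 5342 CPM in treated against 5780 and 5702 CPM in untreated wild-type cells. The ranges of these sums overlapped in both genotypes. Shares were not tested.

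**Figure D4:**
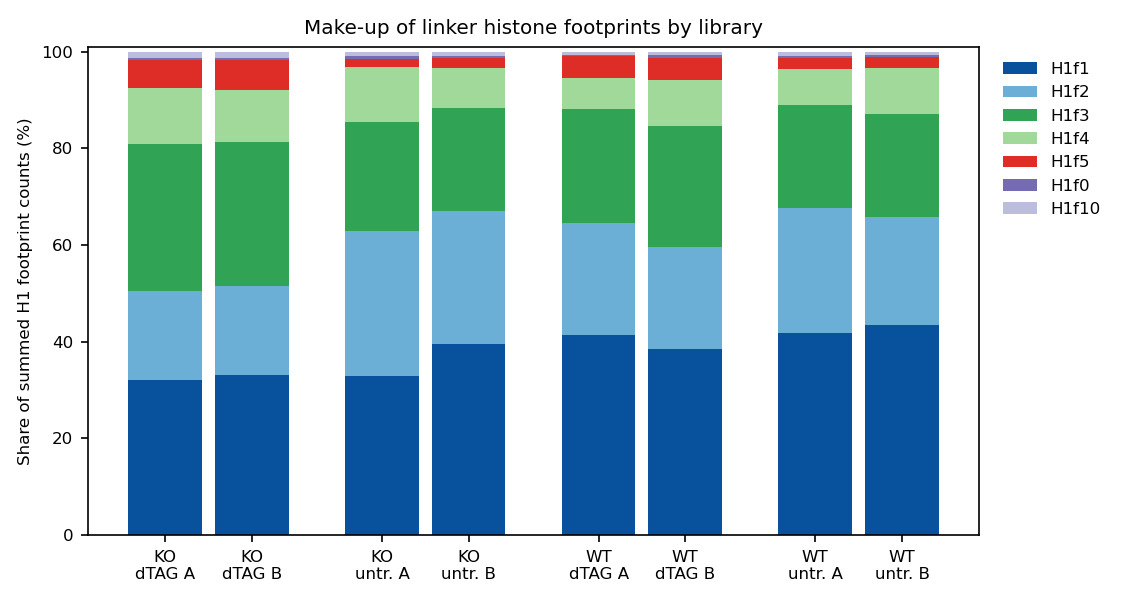
Share in percent of the summed footprint counts of the 7 linker histone genes taken by each gene, in each Gcn2 knockout (KO) and wild-type (WT) library, treated (dTAG) or untreated (untr.). The H1f5 band is wider in treated libraries of both genotypes, and the H1f2 band is narrowest in treated knockout libraries, at 18.3% and 18.4%.

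Levels of different members were compared per kilobase of RefSeq gene length. Since these genes have no introns this is transcript length, and the long untranslated part of H1f0 lowers its value. In untreated wild-type cells the order of footprints was H1f1 at 3290 ± 54.1 CPM per kb, H1f2 at 1910 ± 212, H1f3 at 1580 ± 12.1, H1f4 at 622 ± 95.1, H1f5 at 159 ± 2.58, H1f10 at 42.2 ± 6.67 and H1f0 at 9.63 ± 0.613 CPM per kb (SD, n = 2). No neighbours in that order overlapped. In treated knockout cells H1f3 stood second, with 2320 ± 33.7 CPM per kb, ahead of H1f2 with 1510 ± 54 CPM per kb, and did not overlap with it. In treated wild-type cells H1f3 and H1f2, at 1960 ± 322 and 1920 ± 535 CPM per kb, could not be ordered. Members of this family are known to resemble each other in sequence, most of all in the globular domain, though identity was not computed here. The sources used here do not say how reads common to several copies would have been counted, so levels and shares of single members are uncertain to that extent.

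The untreated cells were compared to ask whether linker histones differed between the genotypes without treatment. As the labels do not give the number of clones, differences between clones and Gcn2 loss cannot be told apart here. H1f0 had 31.9 and 28.4 CPM in knockout against 23.1 and 21.1 CPM in wild-type cells, a log2 difference of 0.45 (SE 0.153, adjusted p = 0.731 by edgeR). H1f10 had 52.8 and 63 CPM in knockout against 49.9 and 39.8 CPM in wild-type cells, a difference of 0.37 (SE 0.142, edgeR adjusted p = 0.744). H1f2 differed by 0.36 and H1f4 by 0.30, and the other 3 by −0.12 to 0.14. The fit called 0 of 7 members with edgeR, where 0.00815% of genes were called. An unadjusted p under 0.05 was reached by 2 members, H1f0 and H1f10, beside 733 of 12267 genes. DESeq2 called 0. CPM did not overlap for 4 members, H1f0, H1f2, H1f3 and H1f10, all higher in the knockout, where 15.6% of genes were higher and 16.1% lower without overlap.

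Among treated cells, H1f10 was the 1 member called between genotypes. The treated libraries, like the untreated ones, also served the contrasts by which the family was chosen. The call is therefore not independent of that choice. Its footprints were 69.4 and 70.8 CPM in treated knockout against 45.7 and 41.4 CPM in treated wild-type cells. All knockout values lay above the wild-type ones. H1f10 was 1.61-fold higher (log2 difference 0.69, SE 0.145, edgeR adjusted p = 0.0241), where 3.78% of genes were called, 1.86% upward. It no longer passed without any one of the 4 treated libraries: the adjusted p was 0.219 without knockout A, 0.288 without knockout B, 0.0512 without wild-type A and 0.144 without wild-type B, with log2 differences of 0.58 to 0.76. H1f0 (0.49, SE 0.16, edgeR adjusted p = 0.104) and H1f4 (0.46, SE 0.139, edgeR adjusted p = 0.0835) were next. H1f1 and H1f2 had differences of −0.37 and −0.35, short of the threshold. All 7 members had groups that did not overlap, 5 higher and 2 lower in the knockout, as 28.2% and 27.2% of genes did.

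Poly(A) RNA was used to ask whether the transcripts changed in wild-type cells, and its levels split the family. H1f10 had 69.4 and 64 CPM in treated against 71.8 and 72 CPM in untreated cells, and H1f0 had 42 and 39.8 CPM against 41.3 and 40.2 CPM. The 5 replication-dependent genes, whose mRNAs lack the tail this method selects for, were each at 0.592 to 4.98 CPM, from 13 to 121 counts per library. H1f2 was the highest of these, with 4.6 and 4.78 CPM in treated against 4.98 and 4.28 CPM in untreated cells. H1f5 had 1.21 and 1.04 CPM in treated against 0.988 and 0.729 CPM in untreated cells, resting on 29 and 18 against 24 and 16 counts.

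The log2 RNA change was −0.11 for H1f10 (SE 0.0631, edgeR adjusted p = 0.939) and 0.01 for H1f0 (SE 0.0731, edgeR adjusted p = 0.999). It was 0.71 for H1f3 (SE 0.454), 0.60 for H1f4 (SE 0.443), 0.39 for H1f5 (SE 0.431), 0.01 for H1f2 (SE 0.193) and −0.26 for H1f1 (SE 0.352). By edgeR, 0 of 7 were called, where 0.163% of 15955 genes were, and 0 had an unadjusted p under 0.05. DESeq2 called 0 as well. The groups did not overlap for H1f3, H1f4 and H1f5, which were higher, and for H1f10, which was lower, as for 16.6% and 16.9% of genes. At 13 to 121 counts a library, the changes of H1f1 to H1f5 in tailed RNA could not be resolved.

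The 2 classes also differed in the ratio of footprint CPM to poly(A) RNA CPM. In treated wild-type cells the ratio was 1910 for H1f1, 1360 for H1f3, 384 for H1f4, 297 for H1f2 and 255 for H1f5, beside a median of 0.734 over 12796 genes. In untreated cells it was 1530 for H1f1, 1790 for H1f3, 608 for H1f4, 298 for H1f2 and 147 for H1f5, beside a median of 0.727. All 5 exceeded at least 99.4% of genes. H1f0, with 0.51 in treated and 0.542 in untreated cells, and H1f10, with 0.653 and 0.624, lay below the median. For the 5 genes without a tail the ratio is not a translational efficiency.

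**Figure D5:**
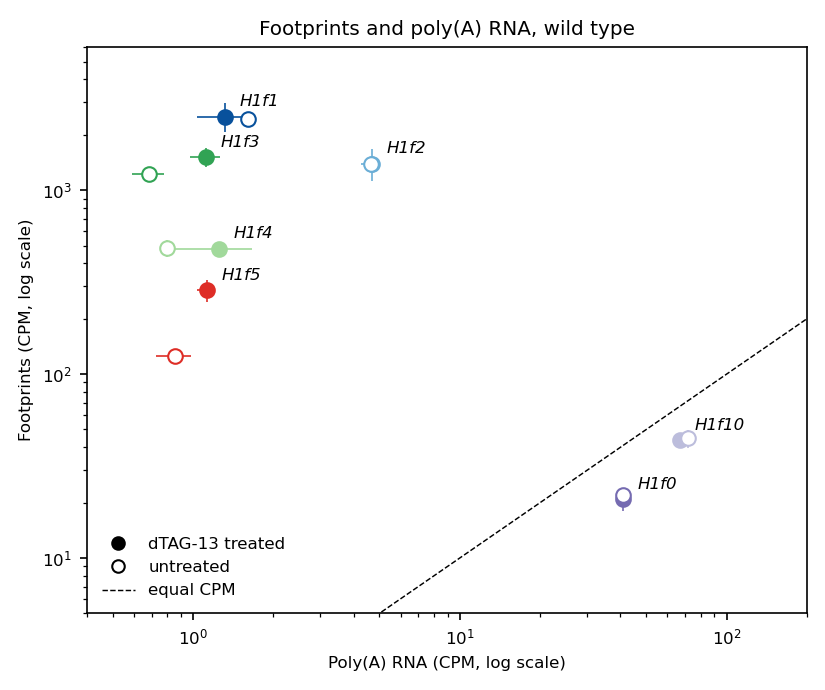
Mean footprints against mean poly(A) RNA in wild-type cells, both in CPM on log axes, for treated (filled) and untreated (open) cells, with bars from the lower to the higher of 2 replicates. The 5 replication-dependent genes lie far above the dashed line of equal CPM, at under 5 CPM of RNA, and H1f0 and H1f10 lie below it.

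The change in footprints beyond the change in poly(A) RNA was also fitted in wild-type cells, and it reuses the footprint contrast. It was −0.07 for H1f0 (SE 0.183) and 0.06 for H1f10 (SE 0.168), the members for which both assays see the mRNA. For H1f5 it was 0.79 (SE 0.357), for H1f4 −0.60 (SE 0.394) and for H1f3 −0.41 (SE 0.344). H1f1 was at 0.28 and H1f2 at 0.00. The value of H1f4 was −1.07 without treated RNA library A and −0.09 without treated RNA library B. That of H1f3 lay between −0.63 (without untreated RNA A) and −0.19 (without treated RNA A), and that of H1f5 between 0.54 and 0.98. Here 1.47% of 12887 genes were called and 0 of 7 members, with 0 at an unadjusted p under 0.05. DESeq2 again called 0.

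Genes whose footprints followed each member most closely were taken by Pearson's r of log2 CPM over the 8 footprint libraries, among 8139 genes. H1f5 was followed by the core histone genes H2bc14 (r = 0.997), H2ac6 (0.993) and H3c8 (0.99). Their log2 changes were 1.96, 1.99 and 1.48 in the knockout and 1.59, 1.29 and 1.12 in wild type. H1f2 was followed by Snrpb, which encodes a core protein of spliceosomal particles (r = 0.984), the RNA polymerase II subunit gene Polr2g (0.977) and the pyruvate dehydrogenase component gene Pdhx (0.97). Snrpb had changes of −0.73 in the knockout and −0.03 in wild type. For H1f3 the nearest were the lysosomal thioesterase gene Ppt1 (0.992), the splicing factor gene U2af1 (0.986) and Cox16 (0.977). No histone gene was among the 3 nearest of any other member: Ahdc1, Sptssa and Arl4d for H1f1, Ccn2, Dnajb11 and Slc66a3 for H1f4, Dcaf4, Slc35d1 and Manf for H1f0, and Praf2, Cdkn2aipnl and Raly for H1f10, with r from 0.941 to 0.989. The libraries share treatment, genotype and depth, so these values rank likeness and nothing more.

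Genes that act on histone mRNA or on H1 itself were taken as further lists. Of 19 genes of histone mRNA processing and decay, edgeR called 0 higher and 2 lower in the knockout, and 1 higher and 2 lower in wild type, with medians of 0.05 and −0.01. These are 10.5% of the list in the knockout, beside 8.88% of all genes, and 15.8% in wild type, beside 4.88%. In the knockout 2 were higher at an unadjusted p under 0.05, where 3004 of 12267 genes passed in either direction, and DESeq2 called 0 higher. The fallers in both were Tut4, a terminal uridylyltransferase (log2 change −0.93, SE 0.14, in the knockout and −0.74, SE 0.139, in wild type), and Sympk, the scaffold of the 3′ end cleavage machinery (−0.72, SE 0.136, and −0.75, SE 0.138). Upf1, the helicase of nonsense-mediated and histone mRNA decay, was the riser in wild type (0.45, SE 0.114). Slbp, which encodes the stem-loop binding protein, was lower in treated knockout than in treated wild-type cells (log2 difference −0.56, SE 0.125, edgeR adjusted p = 0.0301). It was the 1 gene of the list called there, or 5.26% beside 3.78% of all genes.

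Of 12 tested chaperones and competitors of H1, 1 was called in the knockout, the nucleosome-binding protein gene Hmgn1 (0.59, SE 0.124, edgeR adjusted p = 0.0109), or 8.33% beside 8.88% of all genes, and 0 in wild type, with medians of 0.08 and 0.11. In wild type 3 of these had an unadjusted p under 0.05, beside 2335 of 12267 genes. DESeq2 called 1, beside 777 of 9175 genes. Among treated cells, Hmgn1 was higher in the knockout than in wild type (log2 difference 0.64, SE 0.124, edgeR adjusted p = 0.0174) and Set, an H1 and core histone chaperone gene, lower (−0.59, SE 0.151, edgeR adjusted p = 0.0484). They make up 16.7% of the 12, beside 3.78% of all genes. Of 9 replacement histone variants, Cenpa, the centromeric H3 gene, was called in the knockout (0.45, SE 0.127, edgeR adjusted p = 0.0434), which is 11.1% beside 8.88% of all genes, with a median of 0.24. In wild type edgeR called 0 of the 9, with 0 at an unadjusted p under 0.05, 0 by DESeq2 and a median of −0.10. Among treated cells H2az2, an H2A.Z gene, was higher in the knockout than in wild type (log2 difference 0.99, SE 0.152, edgeR adjusted p = 0.00693), as H1f10 was. H2az2 was the 1 variant called in that contrast, or 11.1% beside 3.78% of all genes. Without treated knockout library B, neither H2az2 nor Hmgn1 was still called higher in that contrast. At an unadjusted p under 0.05, 6 of the 9 variants were higher, where 2557 of 12267 genes passed in either direction. DESeq2 called 4 variants higher, where it called 344 of 8699 genes higher. The median difference was 0.43, beside 0 over all genes. Of the germ line linker histones, H1f6 had 45 to 348 raw footprint counts per library, beside 136 to 570 for H1f0. Its highest count was in untreated wild-type library B, where H1f0 had 378. H1f7, H1f8 and H1f9 had 0 or 1.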

How the data were processed

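The 8 footprint and 4 poly(A) RNA libraries were deposited as raw counts per gene symbol. Software listed in the submitters' processing notes is CASAVA 1.4, HISAT2 2.1.0 and cutadapt, with the build mm10. Which tool, annotation and region were used for counting, and how multiply mapped reads were treated, is not given in those sources. Each column was assigned from the sample's title. For treated knockout B this goes against its description, which names the column of A.

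Genes passing filterByExpr (minimum count 10) were scaled by TMM and fitted in edgeR 4.0.16 (R 4.3.3) with robust quasi-likelihood dispersions: 12267 genes over the 8 footprint libraries by group (4 residual degrees of freedom), 15955 over the 4 RNA libraries, and 12887 over the 8 wild-type libraries for the assay by treatment interaction, scaled within assay. All 7 members passed each filter. A call was an adjusted p under 0.05 over all genes, two-sided, and an SE is the log2 change over the square root of F. DESeq2 1.42.0 was an alternative. The fits were also run on simulated counts with the same dispersion for every gene and no replicate effect. Those runs are not used for any result here. For the joint fit, 20050 symbols were paired as written and 84 through RefSeq synonyms. Promoters and positions are from RefSeq, GRCm38.p6, and all 7 members matched.

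The members, lists and tests were chosen with earlier results of these data known. All 7 members are named throughout. Beside each stand the 3 genes with the highest correlation of log2 CPM (prior count 2) at an average log2 CPM of at least 3, leaving out predicted genes and pseudogenes. From each of 5 lists up to 3 called genes per direction were eligible for naming. Replicates are biological per the labels. Each p-value sets a difference between groups against the spread between these libraries, estimated jointly over groups and genes.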

Additional observations from a re-analysis of the deposited data

How the results depend on the processing

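Across DESeq2's size factors, the DESeq2 test, no filter on low counts and the replicate block, the wild-type count of called members stayed at 1. It was 0 with the 4 wild-type libraries alone. In the knockout H1f3 was also called, making 3, by DESeq2, without a filter and with the knockout libraries alone. Between treated genotypes, where 1 member was called, DESeq2 called 2 and the fit without a filter 4, and in the interaction the fit without a filter called 1, H1f2. Leaving out single libraries gave 1 to 3 members in the knockout and 0 to 2 between treated genotypes. Counts for the untreated genotypes, RNA and footprints beyond RNA stayed at 0 in all of these fits and without single libraries.

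The labels name no batch for the replicate letters, and the main fit did not pair libraries by letter. A minus B deviations correlated at 0.49 between untreated and treated wild-type footprints. For the other pairs of footprint groups the correlation was 0.0116 to 0.129. With the replicate block, H1f5 changed by 1.60 in the knockout and 1.19 in wild type, and no member's call changed. The block took the genes called to 1564 from 1089 (knockout), 931 from 599 (wild type), 39 from 6 (interaction), 14 from 1 (untreated genotypes), 916 from 464 (treated genotypes), 16 from 26 (RNA) and 1561 from 190 (footprints beyond RNA). Without a filter these were 1658, 1048, 192, 113, 1228, 34 and 459, and with DESeq2 1177, 777, 111, 31, 784, 8 and 438. Fits of 1 genotype gave 1893 in the knockout and 19 in wild type. Without single libraries they spanned 215 to 1353, 197 to 659, 0 to 32, 1 to 10, 6 to 729, 14 to 267 and 0 to 671.

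Summing H1f1 to H1f5 into 1 gene gave −0.06 in the knockout and 0.13 in wild type, beside medians over the 5 of 0.14 and 0.03.

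Some uncalled changes turned direction between settings, and others kept their sign but moved widely or came close to 0. The cause was not tested. Wild-type H1f2 was 0.00 without a filter, and its footprint change beyond RNA 0.00 with DESeq2's size factors. Without single libraries, footprint changes in the knockout spanned −0.11 to 0.06 for H1f0 and −0.43 to 0.03 for H1f1. In wild type they spanned −0.29 to 0.10 for H1f0, −0.25 to 0.28 for H1f1, −0.20 to 0.12 for H1f10, −0.30 to 0.28 for H1f2 and −0.16 to 0.15 for H1f4. Interaction values spanned −0.13 to 0.23 for H1f0, −0.53 to 0.03 for H1f1, −0.09 to 0.28 for H1f3 and 0 to 0.31 for H1f4. Between treated genotypes H1f1 spanned −0.65 to −0.09 and H1f2 −0.65 to −0.04. Untreated genotype differences spanned −0.37 to 0.09 for H1f1 and −0.34 to 0.10 for H1f5. RNA changes spanned −0.63 to −0.01 for H1f1, 0.07 to 1.05 for H1f4, −0.03 to 0.04 for H1f0 and −0.09 to 0.13 for H1f2. Beyond RNA the spans were −0.30 to 0.09 for H1f0, −0.01 to 0.66 for H1f1, −0.10 to 0.23 for H1f10 and −0.32 to 0.26 for H1f2.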
